A study of Macaca mulatta with 8 samples.

Results

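VIP and CALB2 interneurons are inhibitory neurons that carry the neuropeptide vasoactive intestinal peptide (VIP), the calcium-binding protein calretinin (CALB2), or both. Here they are 943 nuclei of the 58220 kept from 59749 barcodes of single-nucleus RNA sequencing of rhesus macaque brain. They were chosen by counts of RNA molecules, each read through a unique molecular identifier (UMI). A member had at least 500 UMIs and 300 genes, at least 2 UMIs of GAD1 and GAD2 together, at least 5 of ADARB2, none of LHX6 or SLC17A7, and at least 1 of VIP and CALB2 together. These genes chose the nuclei, so their values in members are a description and support nothing.

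VIP and calretinin interneurons arise in the caudal ganglionic eminence of the embryo, a source that also gives rise to the RELN and LAMP5 interneurons and is marked in later life by ADARB2 and PROX1. Interneurons with LHX6, among them the SST and PVALB types, come from the medial ganglionic eminence. In the hippocampus and cortex many VIP and calretinin cells contact other interneurons, so that their firing releases principal cells from inhibition.

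All animals were male rhesus macaques. Tissue of 2 control animals was mixed, tissue of 1 animal given sevoflurane, an inhaled anaesthetic, was handled likewise, and each lot was split into 4 samples. Sevoflurane was given at about 2.5 to 3% for 4 h in each of 3 sessions, near postnatal day 7 and again at 14 and 28 days, and the labels do not say whether these are ages or intervals. Nuclei were taken from frozen tissue and run on 10x Genomics 3' chemistry; the sample characteristics name the hippocampus, the growth protocol the amygdala.

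The deposited matrix holds 8 libraries, numbered 1 to 8 by the suffix on each barcode, and no source used here says which suffix belongs to which sample. Control and sevoflurane members were therefore not compared, and the matrix counts as 1 sample with no p-values. The libraries are aliquots of 2 pools, so agreement over 8 of 8 libraries does not stand for 8 animals. Each library held 35806547 to 47007082 UMIs. Of all barcodes, 429 sequences occurred in more than 1 library. The barcodes of 8 members also occurred in another library, and 0 were shared by 2 members. Intervals in parentheses are exact 95% intervals and cover counting error only.

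The gate narrowed in steps. Of the kept nuclei 6249 passed the GAD1 and GAD2 minimum, 3054 of those passed on ADARB2, 2869 had no LHX6, 2591 had no SLC17A7 as well, and 943 of these had VIP or CALB2. Members were thus 1.62% of kept nuclei (1.52–1.73) and 36.4% of the 2591 ADARB2 interneurons (34.5–38.3). Of the 5620 nuclei with at least 2 UMIs of GAD1 and GAD2 and no SLC17A7, the inhibitory neurons, they were 16.8% (15.8–17.8). Pooled over libraries, the median member held 5498 UMIs and 2617 genes, against a median of 4151 UMIs over all kept nuclei. This order held in libraries 1 to 4 and was reversed in libraries 5 to 8.

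Libraries 1 to 8 gave 104, 119, 66, 67, 149, 147, 146 and 145 members. As a share of kept nuclei these were 1.29%, 1.45%, 0.682%, 0.698%, 2.56%, 2.45%, 2.60% and 2.77%. As a share of inhibitory neurons they were 19.0%, 21.6%, 14.2%, 14.9%, 16.0%, 15.6%, 16.2% and 17.4%. The share of kept nuclei was lowest in libraries 3 and 4 and highest in library 8, while the share of inhibitory neurons was highest in library 2 and lowest in library 3. The median member had 6728, 7016, 6816, 6322, 5147, 4932, 4738 and 5349 UMIs in these libraries. The median kept nucleus had 3412, 3426, 3274, 3189, 6252, 6197, 6078 and 6326 UMIs. Members were thus deeper than kept nuclei in libraries 1 to 4 and shallower in libraries 5 to 8. With every nucleus thinned to 3000 UMIs and shallower nuclei left out, 431 nuclei met the rule, 10.5% to 12.9% of inhibitory neurons in each library and 0.507% to 1.91% of all nuclei.

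**Figure D1:**
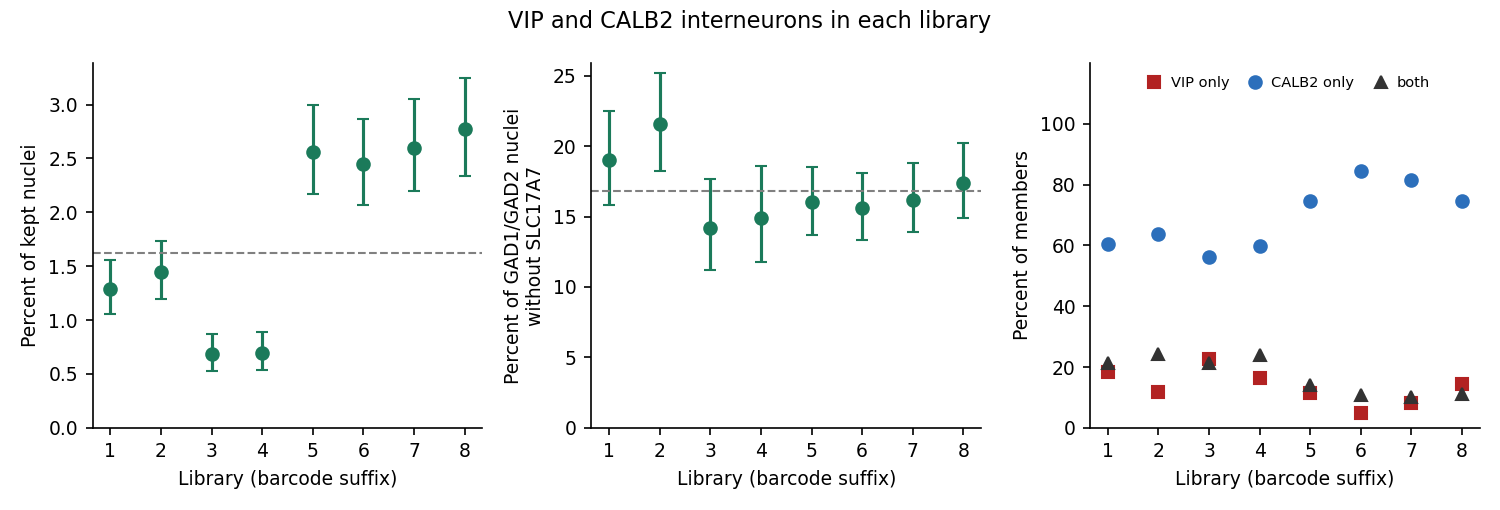
VIP and CALB2 interneurons by library (barcode suffix). Left, percent of kept nuclei; middle, percent of nuclei with at least 2 UMIs of GAD1 and GAD2 and no SLC17A7; points carry exact 95% intervals and dashed lines mark the pooled 1.62% and 16.8%. Right, percent of members with VIP only, CALB2 only or both; CALB2-only nuclei lead in every library, from 56.1% to 84.4%.

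The label was checked against its 4 markers. VIP (ENSMMUG00000019074) was seen in 265 members and CALB2 (ENSMMUG00000008403) in 827, so 28.1% and 87.7% of the nuclei carried each. Both values follow from the rule. Many members stood at the limit of the rule: VIP and CALB2 together summed to 1 UMI in 424, to 2 in 252 and to 3 or more in 267. ADARB2 (ENSMMUG00000017120), a relative of the RNA-editing enzymes, had a median of 53.0 UMIs per member, far above its minimum of 5. SCGN (ENSMMUG00000002574), the calcium-binding protein secretagogin, is the only one of the 4 that the rule did not use. It was present in 107 members, 11.3% (9.39–13.5).

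How much of this could be free RNA was not tested. For comparison, the same genes were counted in oligodendrocytes and LHX6 interneurons, and neither class is shown to lack them. VIP UMIs were found in 0.740% of 5810 oligodendrocytes (0.536–0.996; median 3440 UMIs) and in 0.717% of 558 LHX6 interneurons (0.196–1.83; median 7534 UMIs). For CALB2 the shares were 2.38% of oligodendrocytes (2.00–2.80) and 3.23% of LHX6 interneurons (1.92–5.05). SCGN was in 0.138% of oligodendrocytes (0.0595–0.271) and in 0 of 558 LHX6 interneurons. A count of 0 is given the limit of 3 counts, which allows a share of up to 0.538%. After thinning to 3000 UMIs, SCGN was in 8.10% of members, 0.0845% of oligodendrocytes and 0 LHX6 interneurons. The share of members with SCGN lay above its share in oligodendrocytes and in LHX6 interneurons.

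Nuclei next to each limit of the rule are given as a description. The 1648 ADARB2 interneurons with neither VIP nor CALB2 held SCGN at 4.56 counts per 1000000 UMIs (CPM) and RELN at 2099 CPM. At exactly 1 UMI of VIP and CALB2 the values were 21.0 CPM for SCGN and 734 CPM for RELN, and at 2 or more UMIs they were 50.5 and 445 CPM. LAMP5, a marker of the RELN and LAMP5 type, was at 78.7, 24.9 and 4.67 CPM in the same 3 steps. Members that passed by a single UMI therefore lay between the nuclei outside and the members well inside. Only 5 nuclei had ADARB2 at 3 or 4 and only 3 members had it at 5 or 6, so this limit decided little. Just outside the GAD1 and GAD2 limit stood 338 nuclei with 1 UMI, with SCGN at 59.3 CPM, and just inside it 304 with 2 UMIs, with SCGN at 49.6 CPM. A further 79 nuclei failed for 1 UMI of SLC17A7 and 8 for 1 UMI of LHX6.

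Of members, 678 (71.9%; 68.9–74.7) had CALB2 and no VIP, 149 (15.8%; 13.5–18.3) had both, and 116 (12.3%; 10.3–14.6) had VIP and no CALB2. In the largest cell of this grid, 350 nuclei had a single CALB2 UMI and no VIP. VIP summed to 101, 91.0, 108, 143, 63.2, 32.3, 55.2 and 60.0 CPM in the members of libraries 1 to 8. VIP was thus highest in library 4 and lowest in library 6. CALB2 summed to 263, 213, 261, 206, 284, 290, 317 and 243 CPM, highest in library 7 and lowest in library 4. At a median depth of 5498 UMIs, a nucleus without a VIP UMI is not shown to lack VIP: thinned to 3000 UMIs, 17.2% of members kept a VIP UMI and 59.3% a CALB2 UMI.

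**Figure D2:**
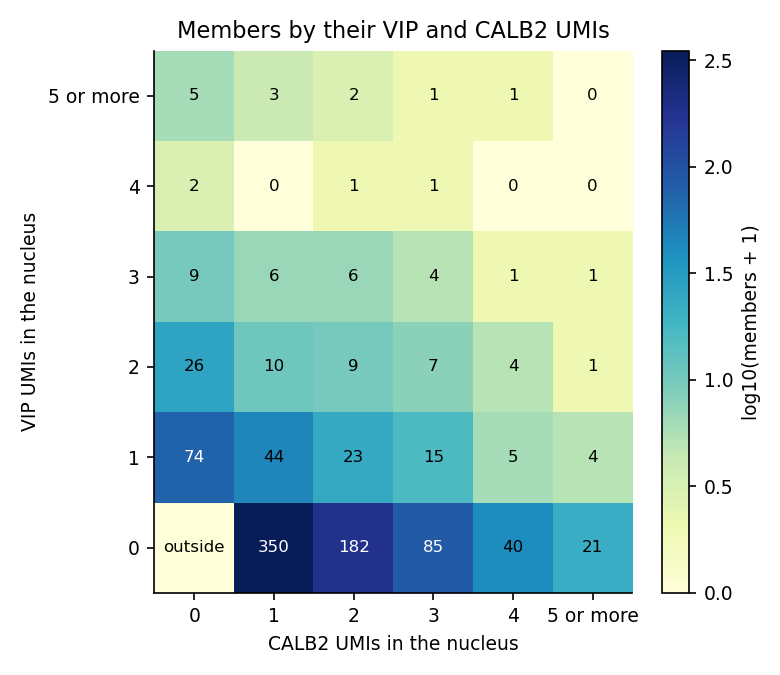
Members by the number of VIP UMIs (vertical axis) and CALB2 UMIs (horizontal axis) in each nucleus; numbers are nuclei and colour is log10(members + 1). Nuclei with neither gene lie outside the rule, and most members sit in the bottom row, 350 of them with a single CALB2 UMI.

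Markers of other cell types were summed in the members, with the range over libraries. The 8 astrocyte markers reached 612 CPM (415 to 864), and none of them was at 0; in LHX6 interneurons the sum was 218 CPM and in RELN interneurons 527 CPM. The 6 oligodendrocyte markers found in the matrix summed to 267 CPM (98.5 to 551), against 15197 CPM in oligodendrocytes, a class chosen by markers of this panel. Excitatory markers summed to 141 CPM, with SLC17A7 at 0 by the rule, and microglial markers to 53.6 CPM, with AIF1 at 0. The cycling markers were at 8.40 CPM with MKI67 at 0. A doublet score marked 40 of 943 members (4.24%), and these were kept in the values given here. The score marks a preset share of each library, from 4.18% in library 8 to 7.75% in library 3. The 6.14% marked over all kept nuclei is therefore a setting and not a measured rate.

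The nearest relatives by the same gate were 849 RELN interneurons, with ADARB2 but neither VIP nor CALB2 and with at least 2 UMIs of RELN (reelin, a secreted matrix protein). Members had more secretagogin, CRH, TAC3 and PTHLH and several distinctive receptors. RELN interneurons had more LAMP5, NDNF, NXPH1 and SV2C and more of several glutamate receptor subunits. A gene was called when its summed level differed at least 2-fold, reached 10 CPM in the higher class, and leaned the same way in every library with 20 nuclei of each class, here all 8. Of 9418 genes at 10 CPM or more in either class, 153 (1.62%) were called higher in members and 106 (1.13%) higher in RELN interneurons. Another 72 differed 2-fold but not in every library. The median log2 ratio of all measured genes was 0.0196. The genes of the gate are left out of these counts, and without a test nothing is said of chance.

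Among 15 measured neuropeptides and secretory granule proteins, 3 were called higher in members (PTHLH, TAC3 and CRH) and 2 higher in RELN interneurons (NXPH1 and NXPH2), with a median log2 ratio of 0.34. PTHLH, which encodes parathyroid hormone-related protein, was at 18.3, 15.7, 22.4, 21.9, 8.35, 13.2, 11.8 and 7.64 CPM in the members of libraries 1 to 8, and at 0 to 12.2 CPM (median 1.10) in RELN interneurons. The ranges overlapped through library 1, where RELN interneurons reached their highest value. Pooled, PTHLH was 6.95-fold higher in members (3.69–14.5), and its log2 ratio moved from 2.80 to 3.73 without library 1. TAC3, the precursor of neurokinin B, was at 7.86 to 24.1 CPM (median 10.3) in members and at 0 to 6.86 CPM (median 2.06) in RELN interneurons. The TAC3 ranges did not overlap, library 4 was highest among members, and the ratio was 4.30 (2.44–8.09). CRH, corticotropin-releasing hormone, was at 5.96 to 20.2 CPM in members and 0 to 6.06 CPM in RELN interneurons, 3.33-fold higher (1.95–5.96). The CRH ranges overlapped by a narrow margin. Pooled, CRH in members was at 10.9 CPM, near the 10 CPM minimum of the rule, and library 2 was the highest. NXPH1, a secreted neuropeptide-like protein, went the other way: 146 CPM in members against 919 CPM, 6.31-fold lower (5.87–6.79), and the libraries did not overlap (85.6 to 238 against 661 to 1584 CPM).

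SCGN led the calcium-binding proteins, of which 2 of 13 measured were called higher in members and 2 higher in RELN interneurons, with a median log2 ratio of 0.16. In members it was at 56.3, 31.5, 69.3, 39.5, 41.8, 27.5, 25.0 and 28.4 CPM in libraries 1 to 8. In RELN interneurons it was at 0 in 4 libraries and reached 11.3 CPM in library 2. The classes did not overlap, and SCGN was 13.0-fold higher in members (7.84–23.2). CALN1, a neuronal calcium sensor, was at 506 CPM in members and 195 CPM in RELN interneurons, a ratio of 2.59 (2.42–2.78), and with doublets removed its log2 ratio moved from 1.37 to 1.96. HPCAL1 was 2.08-fold lower in members (1.81–2.39), but its ranges overlapped between libraries (19.7 to 83.8 against 56.7 to 142 CPM), and NECAB2 was 2.04-fold lower (1.51–2.79). Both lay near the 2-fold limit. HPCAL1 was not called without library 5 (log2 ratio -0.96), nor NECAB2 without library 1, 3 or 6 (nearest to 0 without library 6, at -0.84) or without sub-cluster 5 (-0.94).

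Receptors for peptides and neuromodulators held 5 genes called higher in members and 1 called lower of 25 measured, with a median log2 ratio of 0.59. CHRNA2, the nicotinic acetylcholine receptor subunit alpha 2, was at 79.9, 51.7, 73.4, 83.4, 10.7, 14.4, 13.1 and 26.2 CPM in the members of libraries 1 to 8. RELN interneurons held 4.08, 7.51, 10.5, 15.9, 1.06, 4.04, 0 and 1.14 CPM of it. The ranges of the classes overlapped across libraries. Members were higher in each library, as the rule requires of a called gene, and pooled CHRNA2 was 9.89-fold higher in members (6.38–16.1). NPR3, the clearance receptor of natriuretic peptides, was at 14.4 to 51.2 CPM in members and 0 to 9.53 CPM in RELN interneurons, without overlap and 9.01-fold higher (5.54–15.6). PTH2R, ADRA1B and GRPR were the other 3 called higher. HTR2C, a serotonin receptor, was the 1 called lower: 43.8 to 149 CPM in members and 155 to 562 CPM in RELN interneurons, 4.27-fold lower (3.82–4.78).

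Outside the lists, GPR149, a receptor with no known ligand, had the largest ratio. It was at 34.0, 28.1, 57.1, 35.1, 33.4, 45.5, 17.1 and 25.1 CPM in members and at 0 in 5 libraries of RELN interneurons, 25.9-fold higher when pooled (12.4–65.4). Without library 6, where that class had its highest value, the log2 ratio moved from 4.70 to 6.13. CALCR, the calcitonin receptor, was 11.8-fold higher (6.74–22.7), from 6.12 CPM in library 3 to 48.3 in library 4, and its log2 ratio moved from 3.57 to 4.20 without library 8. Among abundant genes, THSD7A, a membrane protein with thrombospondin repeats, was at 1053 to 1358 CPM in members and 151 to 335 CPM in RELN interneurons. LRP1B, a large endocytic receptor, was at 4307 to 5422 CPM against 1132 to 1760 CPM. For neither gene did the ranges of the classes over the libraries overlap, and the ratios were 5.58 (5.24–5.94) for THSD7A and 3.14 (3.06–3.22) for LRP1B.

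Glutamate receptors leaned to the RELN side: 1 of 25 measured was called higher in members and 4 higher in RELN interneurons, with a median log2 ratio of -0.26. GRM7, a presynaptic metabotropic receptor, was the 1 higher in members, at 1302 to 1616 CPM against 304 to 693 CPM, a ratio of 2.51 (2.41–2.62). The AMPA receptor subunit GRIA4 was 2.77-fold lower in members (2.66–2.90). The NMDA receptor subunits GRIN2A and GRIN3A were 2.41-fold (2.33–2.50) and 3.37-fold (3.13–3.64) lower. None of these 4 genes overlapped between the classes over the 8 libraries. Of 14 measured GABA receptor subunits, only GABRD, the delta subunit of extrasynaptic receptors, was called: 12.8 CPM in members and 46.3 CPM in RELN interneurons, 3.63-fold lower (2.80–4.75).

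Transcription factors of interneuron lineages gave 3 called higher in members and 4 called lower of 47 measured, with a median log2 ratio of 0.10. PROX1, a homeobox factor of caudal-eminence interneurons, was at 210, 170, 116, 182, 156, 134, 129 and 145 CPM in members and at 56.7 to 108 CPM in RELN interneurons. Every library of members lay above every library of RELN interneurons, and the ratio was 2.14 (1.90–2.42). ST18 and ZFHX4 were the other 2 called higher, and TOX2, TOX3, TOX and BCL11B were those called lower. ST18 was not called among members with 2 or more UMIs of VIP and CALB2 (log2 ratio 1.96) or with no RELN UMI (1.75), and ZFHX4 was also not called in the latter (1.01). ZFHX4 was no longer called without the 59 members of sub-cluster 5, described further on, where it stood at 99.7 CPM against 17.3 CPM in the other members. Adhesion and guidance genes gave 6 higher in members and 5 lower of 85 measured. SDK1, a synaptic recognition protein of the immunoglobulin family, was at 687 to 1140 CPM in members against 170 to 336 CPM, 4.11-fold higher (3.87–4.38). Ion channels gave 4 higher and 2 lower of 54; KCNK2, a leak potassium channel, was 4.17-fold higher in members (3.39–5.18).

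LAMP5, NDNF, SV2C, EYA4, KIT and NOS1 were the 6 interneuron markers called higher in RELN interneurons, of 16 measured. LAMP5 was at 5.24 to 23.6 CPM (median 12.7) in members and at 56.0 to 116 CPM in RELN interneurons, 6.58-fold lower (5.18–8.46). NDNF, a secreted neurotrophic factor, was 7.73-fold lower (6.04–10.0), SV2C, a synaptic vesicle protein, 7.96-fold lower (6.50–9.84), and NMBR, the receptor of neuromedin B, 8.66-fold lower (6.78–11.2). None of these overlapped between classes. Of the 943 members 290 had at least 1 RELN UMI. Without them, 653 members were left, 185 genes were called higher in members and 172 lower. RELN also chose the compared class, so larger ratios of genes found together with RELN are a description here and support nothing. In these 653 members the log2 ratio of NDNF moved from -2.95 to -5.07, of NMBR from -3.12 to -5.37, of LAMP5 from -2.72 to -4.02 and of HTR2C from -2.09 to -2.84. In members with 2 or more UMIs of VIP and CALB2 they stood at -3.95 (NDNF), -4.19 (NMBR), -4.22 (LAMP5) and -3.28 (HTR2C), and NXPH1 moved from -2.66 to -3.53. With the wider class of all 1648 ADARB2 interneurons without VIP and CALB2, CALCR (log2 ratio 2.43), ST18 (0.93), ZFHX4 (0.50), HPCAL1 (-0.99) and NECAB2 (-0.85) were not called. GPR149 then stood at 2.12, PTHLH at 1.68, NPR3 at 2.07, CHRNA2 at 2.46, SCGN at 3.06, THSD7A at 1.76, SDK1 at 1.37, NDNF at -2.26 and NMBR at -2.29. In the 11 measured genes of GABA synthesis, transport and chloride balance, 0 were called in either direction.

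**Figure D3:**
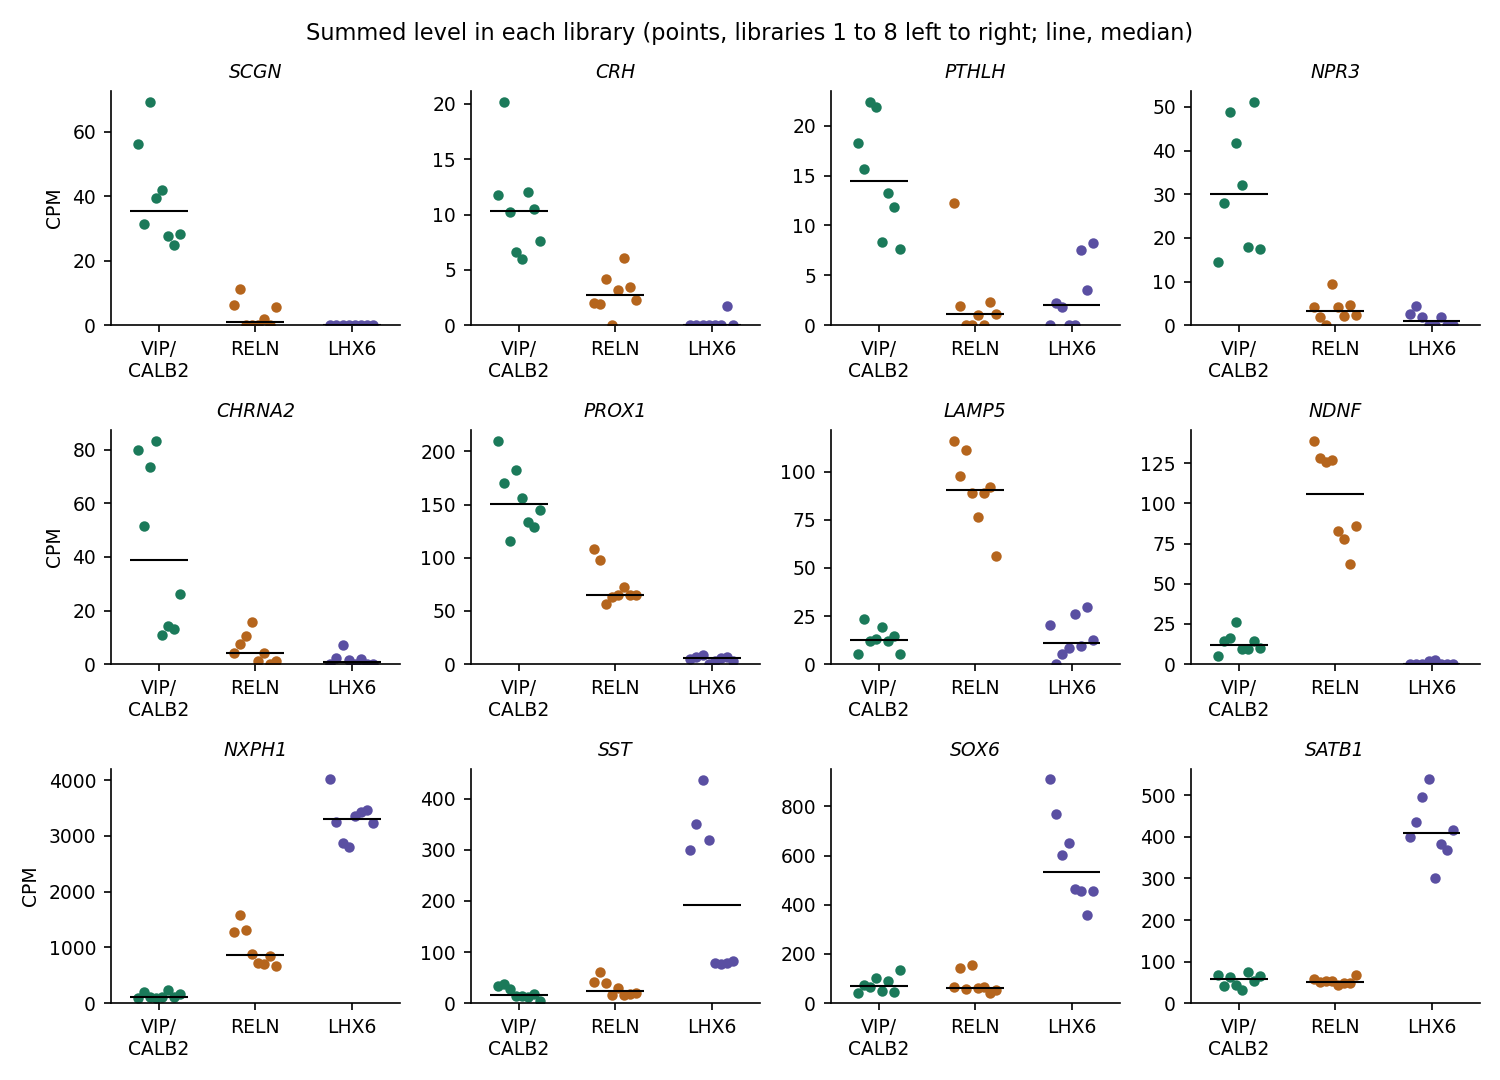
Summed level in CPM of 12 genes in each of 8 libraries (points, libraries 1 to 8 from left to right) for VIP and CALB2 interneurons, RELN interneurons and LHX6 interneurons; lines are medians over libraries and each axis starts at 0. SCGN, NPR3 and PROX1 are highest in the members, LAMP5 and NDNF in RELN interneurons, and NXPH1, SST, SOX6 and SATB1 in LHX6 interneurons.

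LHX6 interneurons, the other large lineage, were 558 nuclei with at least 2 UMIs of LHX6 and at most 1 of ADARB2. Members had far more PROX1, NR2E1, SCGN, CRH, CHRNA2 and DSCAM. LHX6 interneurons had far more NXPH1, SST, NPY, TAC1, SATB1 and SOX6. Of 9484 measured genes 372 (3.92%) were called higher in members and 278 (2.93%) higher in LHX6 interneurons, and 161 differed 2-fold but not in every library. The median log2 ratio of all measured genes was 0.0101.

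Of 45 lineage transcription factors 15 were called higher in members and 8 higher in LHX6 interneurons, with a median log2 ratio of 0.45. PROX1 was at 116 to 210 CPM in members and 0 to 8.91 CPM in LHX6 interneurons, 33.9-fold higher (22.1–55.1). NR2E1, an orphan nuclear receptor of neural progenitors and of some interneurons, was at 17.0, 20.2, 26.5, 17.6, 25.1, 35.9, 25.0 and 28.4 CPM in members and 0 to 3.77 CPM in LHX6 interneurons, 14.2-fold higher (7.04–33.6). NR2F1 and NR2F2, the COUP transcription factors, DLX5, DLX6 and NPAS3 were also called higher in members. SATB1 was at 32.2 to 74.2 CPM in members and 302 to 539 CPM in LHX6 interneurons, 7.48-fold lower (6.65–8.43). SOX6, needed with SATB1 by medial-eminence interneurons, was at 40.6, 75.3, 67.3, 103, 50.1, 88.6, 47.3 and 133 CPM in members, 7.34-fold lower (6.64–8.13). Outside sub-cluster 5, SOX6 in members was 33.5 CPM and its log2 ratio moved from -2.88 to -4.05.

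Peptides gave 3 called higher in members and 6 higher in LHX6 interneurons of 18 measured, with a median log2 ratio of 0.35. SST, somatostatin, was at 3.27 to 37.1 CPM (median 15.1) in members, highest in library 2 and lowest in library 8, and at 300, 351, 437, 318, 77.9, 77.2, 79.3 and 82.5 CPM in LHX6 interneurons. Members were lower in all 8 libraries, by 10.3-fold when pooled (8.47–12.6), although both classes moved over a wide range. At least 1 SST UMI was present in 10.2% of members (8.32–12.3; median 5498 UMIs) and in 15.4% of oligodendrocytes (14.5–16.3; median 3440 UMIs). Thinned to 3000 UMIs these were 5.69% and 10.3%. The members' share was below that of oligodendrocytes, and whether it is background was not tested. NPY, neuropeptide Y, was 27.4-fold lower (15.7–52.1) and TAC1, the substance P precursor, 22.4-fold lower (13.7–38.9). NXPH1 was at 85.6 to 238 CPM in members and 2797 to 4012 CPM in LHX6 interneurons, 22.5-fold lower (21.0–24.1), and in members with 2 or more UMIs of VIP and CALB2 its log2 ratio moved from -4.49 to -5.36. CRH had 65 UMIs in members and 1 UMI in LHX6 interneurons, a ratio of 50.1 with an interval of 8.67 to 2007, and it was not called without library 2. Without library 7, which held that 1 UMI, the log2 ratio is a lower bound of 3.88. SCGN had 226 UMIs in members and 0 in LHX6 interneurons, which makes it at least 58.0-fold higher against a floor of 3 counts over that class.

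Receptors for peptides and neuromodulators were called higher in members in 11 of 25 cases and lower in 1, OPRM1, the mu-opioid receptor. OPRM1 was not called without sub-cluster 5 (log2 ratio -1.23), with doublets removed (-1.34), with 2 UMIs of VIP and CALB2 (-1.41) or among members with no RELN UMI (-1.13). Their median log2 ratio was 1.24. NPR3 and CHRNA2 led, at 27.1-fold (11.4–84.5) and 26.0-fold (12.4–65.3). Both rest on few UMIs in LHX6 interneurons, 5 and 7: the log2 ratio of NPR3 moved from 4.76 to 5.36 without library 2, and that of CHRNA2 from 4.70 to 5.62 without library 3. CNR1, the cannabinoid receptor of terminals that release GABA, was among the 11, at 763 CPM in members and 63.9 CPM in LHX6 interneurons, and at 663 to 893 CPM in the members of single libraries. In 80.4% of members (77.7–82.9) at least 1 CNR1 UMI was found, against 31.5% of LHX6 interneurons (27.7–35.6) and 6.87% of oligodendrocytes (6.23–7.55). After thinning, the CNR1 shares were 69.9%, 14.3% and 5.04%. HTR3A, the serotonin-gated channel subunit used as a marker of caudal-eminence interneurons, was at 19.5 CPM in members, 16.2 in RELN interneurons and 2.18 in LHX6 interneurons. It ranged from 2.04 CPM in library 3 to 43.1 CPM in library 6, and 7.32% of members (5.74–9.17) held a UMI of it, against 0.0172% of oligodendrocytes (0.000436–0.0959). Thinned, HTR3A was in 4.38% of members and 0.0282% of oligodendrocytes. CHRNB3, a nicotinic subunit not on the lists, had 153 UMIs in members and 0 in LHX6 interneurons, at least 39.3-fold higher.

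Of 25 glutamate receptor genes, 0 were called higher in members and 7 higher in LHX6 interneurons, with a median log2 ratio of -0.10. GRIK3, a kainate receptor subunit, was at 39.3, 39.3, 46.9, 19.7, 53.7, 71.8, 60.4 and 74.2 CPM in members and at 344 to 500 CPM in LHX6 interneurons, 8.21-fold lower (7.29–9.27). GRIK1, another kainate subunit, was at 1582 CPM in members and 3609 CPM in LHX6 interneurons, 2.28-fold lower (2.22–2.34). GRIA3, an AMPA subunit, was 3.44-fold lower (3.23–3.66). None of these overlapped between the classes. Of the GABA receptors 1 of 14 was called in each direction. GABRD was 3.91-fold lower in members (3.01–5.14). GABRG1, the gamma-1 subunit, was 2.02-fold higher (1.67–2.44), at the limit of the rule. It was not called without library 1, 2, 3 or 8 (log2 ratios 0.94, 0.98, 0.91 and 0.96), without sub-cluster 5 (0.97), or with TMM scaling (0.99). The log2 ratio was lower still with equal weight per nucleus (0.72) and with 2 or more UMIs of VIP and CALB2 (0.73). Among members with no RELN UMI it was 0.53.

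Adhesion and guidance genes gave 13 higher in members and 8 higher in LHX6 interneurons of 84. DSCAM, a cell adhesion protein of neurite spacing, was at 2270 to 2630 CPM in members and 171 to 392 CPM in LHX6 interneurons, 9.85-fold higher (9.27–10.5). Ion channels gave 8 higher and 5 lower of 52, led by KCNT2, a sodium-activated potassium channel at 922 to 1147 CPM in members and 54.4 to 133 CPM in LHX6 interneurons, 9.85-fold higher (8.97–10.8). Among immature and migrating neuron genes 2 of 26 were called in each direction. DCX, the marker of migrating neurons, was not among them, at 108 CPM in members, 102 in RELN interneurons and 147 in LHX6 interneurons.

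The largest ratio on the other side was that of MORN5, with 5 UMIs in members and 390 in LHX6 interneurons, 101-fold lower (43.0–314), and its log2 ratio lay between -6.05 and -8.19 over all alternatives tried. MORN5 and LHX6 are neighbours in the T2T-MMU8v2.0 annotation, which is not known to be the build used here. Whether counting here used strand is not given in the sources. Whether reads of LHX6 were counted for MORN5, or the reverse, was not tested. HGF, hepatocyte growth factor, had 2 UMIs in members and 112 in LHX6 interneurons, a ratio of 72.7 with an interval of 19.7 to 608. MME, the peptidase neprilysin, was 59.1-fold lower in members (22.7–219). The log2 ratio of MME moved from -5.88 to -7.51 without library 1, and that of HGF from -6.18 to -7.08 without library 5 and -6.98 without library 8. A pair of astrocyte glutamate transporters was also called higher in members. SLC1A3 was at 95.3 CPM in members and 37.8 CPM in LHX6 interneurons, 2.52-fold higher (2.13–3.01), but at 39.8 CPM in the members outside sub-cluster 5. SLC1A2 was at 437 CPM in members, 134 CPM in LHX6 interneurons and 275 CPM in the members outside sub-cluster 5. Without that sub-cluster 343 genes were called higher in members and 306 lower, 322 and 265 of them shared with the calls over all members.

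**Figure D4:**
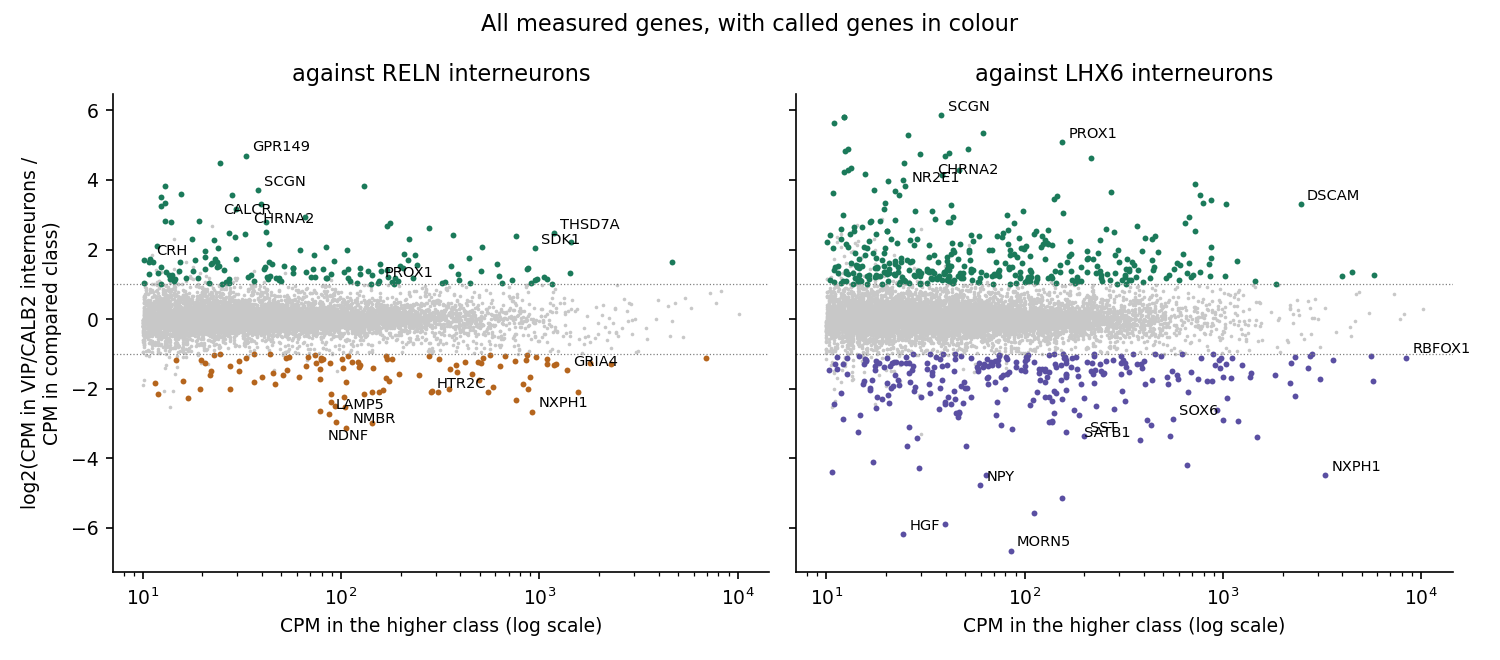
Log2 ratio of summed CPM (VIP and CALB2 interneurons over the compared class) against CPM in the higher class (log scale), for 9418 genes measured against RELN interneurons (left) and 9484 against LHX6 interneurons (right). Green marks genes called higher in members (153 and 372), brown and purple those called lower (106 and 278), grey the rest; dotted lines mark 2-fold.

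Members were then compared among themselves by VIP and CALB2. The set rule, VIP-only against CALB2-only members, met its minimum of 20 nuclei of each kind in library 8 alone. It called 177 of 9600 measured genes (1.84%) higher in VIP-only members and 223 (2.32%) higher in CALB2-only members. Its check of direction thus rests on 1 library, and without library 8, where no check is left, 282 and 359 genes passed. A wider split, chosen after the data had been seen, set the 265 members with any VIP UMI against the 678 with CALB2 only and had 20 nuclei of each kind in all 8 libraries. It called 22 of 9545 genes (0.230%) higher with VIP and 47 (0.492%) higher with CALB2 only, and 168 differed 2-fold but not in every library. The median log2 ratio of all measured genes was -0.0145. The groups were not matched for UMIs of VIP and CALB2. A single UMI had passed 350 of the 678 CALB2-only members and 74 of the 265 with VIP. Members with 1 such UMI held SCGN at 21.0 CPM, and those with 2 or more at 50.5 CPM. The part of this in the differences between the groups was not tested.

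SCGN was among the 22. It stood at 101, 52.4, 147, 88.6, 106, 34.6, 82.2 and 68.8 CPM in VIP-detected members of libraries 1 to 8, and at 26.2, 19.4, 3.77, 3.79, 20.6, 26.4, 11.4 and 12.2 CPM in CALB2-only members. The groups did not overlap, and pooled SCGN was 5.02-fold higher with VIP (3.77–6.74). Nuclei with a SCGN UMI were most frequent where VIP and CALB2 occurred together, 32.9% (25.4–41.0), against 15.5% (9.46–23.4) with VIP only and 5.90% (4.25–7.95) with CALB2 only. The median depths of these nuclei were 6094, 6141 and 5300 UMIs. PCP4, a calmodulin-binding peptide, was 3.90-fold higher with VIP (3.01–5.07), and TMEM132D, a neuronal membrane protein, 3.47-fold higher (3.27–3.69), at 641 to 2018 CPM against 306 to 552 CPM. NPR3 was 2.82-fold higher (2.07–3.84). NTNG1, the synaptic adhesion protein netrin-G1, was 2.81-fold higher (2.48–3.20) over all VIP-detected members, but not in those that also had CALB2. It was at 590 CPM in VIP-only members, 54.1 CPM in members with both genes and 107 CPM in CALB2-only members.

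CALB2-only members had more CALCR, GPC5, HCRTR2 and TAC3. CALCR was at 3.27, 9.25, 4.45, 5.21, 0, 0, 0 and 11.5 CPM in VIP-detected members of libraries 1 to 8 and at 7.53 to 79.6 CPM in CALB2-only members, 7.47-fold lower with VIP (3.84–16.6). The ranges overlapped through library 3, where CALB2-only members had their lowest value. GPC5, a cell-surface proteoglycan, was 6.33-fold lower with VIP (5.40–7.48). HCRTR2, an orexin receptor, was 2.87-fold lower (2.19–3.80) and TAC3 2.55-fold lower (1.30–5.60). Of 45 lineage transcription factors 0 were called higher with VIP and 4 higher with CALB2 only, NR2F2, TOX2, TOX3 and SATB1. Of 25 glutamate receptors GRIK3 and GRIK4 were called, both lower with VIP, at 2.11-fold (1.57–2.89) and 2.43-fold (2.02–2.94). Of 14 GABA receptors and 28 immature neuron genes 0 were called. CRH was not called, at 14.6 CPM with VIP and 9.34 CPM with CALB2 only, a ratio of 1.57 (0.915–2.64).

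Clustering the members on their own divided them into 9 sub-clusters. The sub-clusters were formed from the expression of these same nuclei (2000 variable genes), so their leading genes are a description, with no test. All 9 held nuclei of all 8 libraries, and none is given a cell type name. At a finer resolution the same nuclei made 17 sub-clusters.

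Sub-clusters 4, 2 and 6 held most of the VIP. In sub-cluster 4 (117 nuclei) 60.7% of nuclei had VIP and 85.5% CALB2, and SCGN led at 233 CPM against 14.3 CPM in the other members, followed by TRIM38, TRPC6, DNAH3 and PCP4. Sub-cluster 2 (185 nuclei, the largest) had VIP in 48.6%, with RGS6, a regulator of G-protein signalling, at 2235 CPM against 462 CPM elsewhere, and PTH2R at 104 CPM. HS3ST3A1 and HS3ST3B1, heparan sulphate sulfotransferases, also led sub-cluster 2, but they are close copies of each other and their separate counts are uncertain. Sub-cluster 6 (70 nuclei) had VIP in 45.7% and CALB2 in only 54.3% of nuclei, the lowest share of CALB2. It held CNR1 at 2589 CPM, above the 235 to 1180 CPM of the other 8 sub-clusters, NTNG1 at 866 CPM, and PROX1 at 24.3 CPM, below the 104 to 211 CPM of the others. Its median depth was 8663.5 UMIs, against 5498 for all members.

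The other groups were nearly all CALB2. Sub-cluster 1 (141 nuclei) was led by FHL2, CCL13 and LGR6 and had the serotonin receptor HTR1E at 247 CPM. Sub-cluster 3 (152 nuclei) was led by NPTX2 and SOX5, the latter a transcription factor at 861 CPM against 179 CPM, and had TAC3 at 41.9 CPM, with 0 to 13.0 CPM in the other sub-clusters. Sub-cluster 7 (96 nuclei) was led by TTN, COL21A1 and NPSR1 and had HCRTR2 at 348 CPM against 53.4 CPM. CALCR in sub-cluster 7 was at 110 CPM but in only 13.5% of nuclei, and sub-cluster 9 held it at 105 CPM in 20.3%. Sub-cluster 9 (74 nuclei) held PENK, the enkephalin precursor, at 71.1 CPM against 2.92 CPM in the other members, with GPC5 at 3093 CPM and HTR3A at 96.2 CPM.

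A pair of sub-clusters stood apart. Sub-cluster 8 (49 nuclei) carried the genes that mark RELN interneurons: RELN at 4137 CPM, LAMP5 at 196 CPM against 3.37 CPM in the other members, NMBR at 186 CPM, NDNF at 104 CPM and SV2C at 163 CPM. CALB2 was present in 91.8% of its nuclei at 183 CPM and SCGN was at 0. Its nuclei thus meet the rule while holding the other type's markers, and they made up 2.72% to 8.05% of the members of each library. Sub-cluster 5 (59 nuclei) was led by astrocyte genes, among them GLI3, ALDH1A1 and PRDM16, with SLC1A3 at 510 CPM. Its median depth was 10166 UMIs and it held 34 of the 40 members that the doublet score marked. It made up 2.99% to 8.97% of the members of each library.

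**Figure D5:**
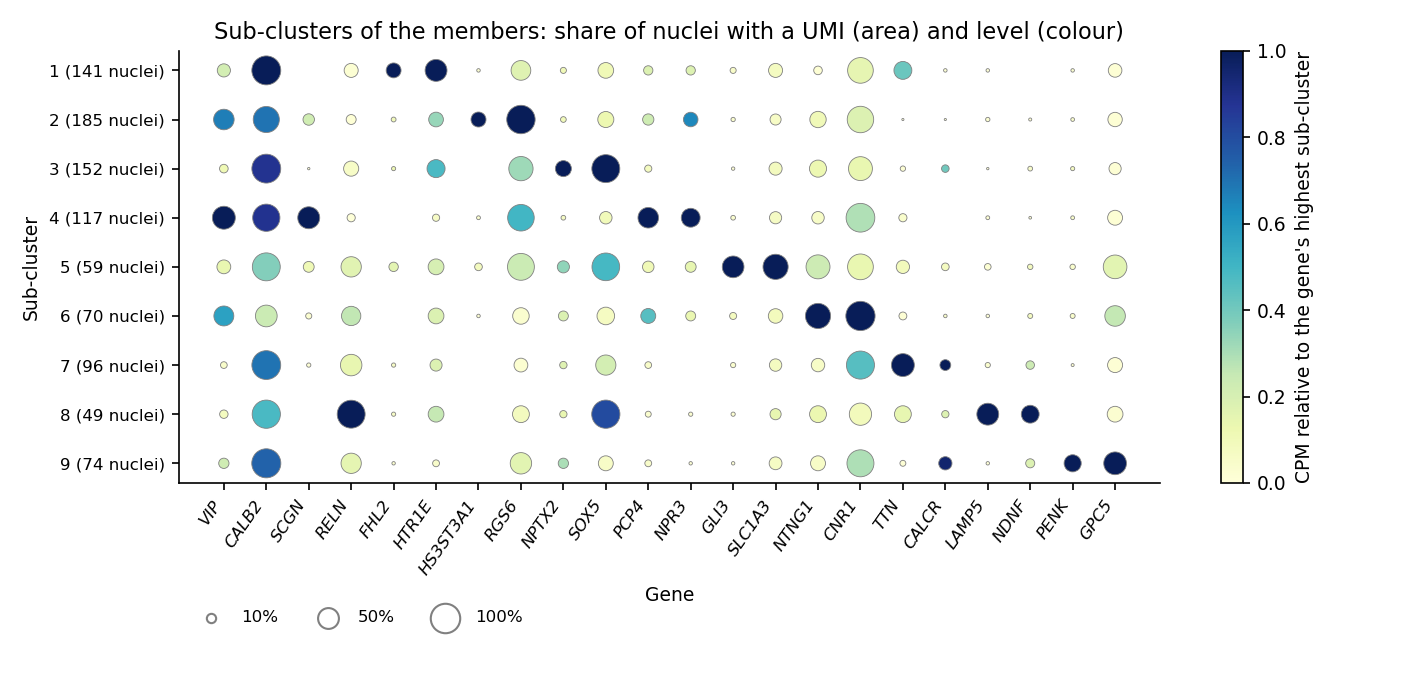
Sub-clusters 1 to 9 of the members (rows, with nuclei) and 22 genes (columns): circle area is the percent of nuclei with at least 1 UMI and colour is CPM relative to the gene's highest sub-cluster. SCGN and VIP peak in sub-cluster 4, RELN, LAMP5 and NDNF in sub-cluster 8, and the astrocyte genes GLI3 and SLC1A3 in sub-cluster 5.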

How the data were processed

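The authors deposited 1 matrix of raw counts, whole numbers of UMIs for each gene in each barcode, written by Cell Ranger 3.1.0 per the file headers. Also named in the submitters' processing notes are CASAVA 1.8, Cell Ranger and Seurat, without roles. The genome build is not given in the sources used here.

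Counts of each class were summed (21748 genes) and given as CPM. A gene was measured at 10 CPM in either class and called at a 2-fold ratio with the same direction in every library with 20 nuclei in both. Exact intervals were Clopper-Pearson for shares, Poisson for CPM and, for ratios, binomial on the summed UMIs of both classes. The scripts were tested on simulated data. Doublets were scored against simulated pairs (50 neighbours; 0.8% per 1000 nuclei). Sub-clusters used scanpy 1.11.5: 2000 variable genes, 20 principal components, 15 neighbours, Leiden resolution 0.5, seed 1. TMM factors came from edgeR 4.0.16.

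The members, 11 gene lists (420 genes, 413 in the matrix) and 12 marker panels (70 of 74 markers in the matrix) were chosen with earlier results of these data known. Genes open to naming were, in each comparison, the 2 called genes with the largest ratio of each list in each direction, over all genes the 8 with the largest ratio and 4 of highest CPM per direction, all neuropeptide, calcium-binding and GABA receptor genes at 10 CPM in members, and all markers. Outside it, chosen after their values were seen, were DCX, and CNR1 and HTR3A against LHX6 interneurons, the list members named without values and the leading genes of sub-clusters. Of the gene IDs 17209 are in the symbol table.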

Additional observations from a re-analysis of the deposited data

Results flagged for a closer look

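Of 42 quantities over the 8 libraries, 2 held a library far from the others by a gap test at the 95% level, and chance flags about 1 in 20. HTR2C in members was at 149 CPM in library 3, where the next library was at 81.2 CPM and the median at 64.0 CPM. ROBO2, a receptor of SLIT guidance proteins, was at 4411 CPM in the members of library 3, with the next at 3362 CPM and the median at 3098 CPM. Library 3 gave the fewest members, 66. The cause was not tested.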

How the results depend on the processing

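No paired analysis was possible because no barcode suffix is tied to a sample, so replicate numbers could not be used, and no test between groups was run. Requiring 2 UMIs of VIP and CALB2 left 519 members, and after thinning to 3000 UMIs 431 nuclei met the rule, 419 of them members before. A 50 CPM minimum left 78 genes higher in members than in RELN interneurons, and 184 higher and 181 lower than in LHX6 interneurons; the drop comes from fewer genes measured. With any RELN count in the compared class (1648 nuclei) 82 genes were higher in members. Members with no RELN UMI gave 172 lower, an alternative added after seeing the data that splits members by the gene that chose the compared class. With LHX6 at 5 UMIs or more only 16 nuclei and no library with 20 were left, so 1181 and 1080 genes passed without a check of direction, the log2 ratio of TAC3 turned to -0.550, and NMBR, CRH and HS3ST3B1 gave no value.

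Between VIP-only and CALB2-only members the counts were least stable: 34 and 43 genes at 50 CPM, 597 and 763 with 2 UMIs (42 and 328 nuclei, no library with 20), 22 and 47 for the VIP-detected split, added after seeing the data. Equal weight per library was not run there, since only library 8 qualifies. Resolution 1.0 gave 17 sub-clusters. Leaving out each library in turn gave 794 to 877 members, 157 to 167 and 108 to 120 genes against RELN interneurons, 381 to 406 and 280 to 296 against LHX6 interneurons, and 187 to 282 and 226 to 359 for VIP-only against CALB2-only members.

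Of 2385 values of 140 named genes under these alternatives, 2080 stayed within the counting interval, 304 moved outside it with the same direction and 1 turned. TMM scaling, doublet removal, the 1000-gene minimum and equal weights per nucleus kept each count of the RELN and LHX6 comparisons within 1.5 times. Depth limits VIP, CALB2 and the peptides at 1 or 2 UMIs per nucleus, and the pools cannot be told apart from their animals.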

Other observations

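Some values of the 8 libraries fell into separate clusters. They are given here without a group, since no suffix is tied to a sample, and with no explanation. The members' VIP level was 101, 91.0, 108 and 143 CPM in libraries 1, 2, 3 and 4, and 63.2, 32.3, 55.2 and 60.0 CPM in libraries 5, 6, 7 and 8. CHRNA2 was at 79.9, 51.7, 73.4 and 83.4 CPM and at 10.7, 14.4, 13.1 and 26.2 CPM in the same order. CRISPLD1, a secreted protein, was at 115, 91.0, 75.5 and 105 CPM and at 27.4, 40.7, 30.2 and 38.2 CPM. HPCAL1 lay the other way, at 30.1, 39.3, 26.5 and 19.7 CPM and at 51.3, 83.8, 68.3 and 72.0 CPM. The members' median depth moved with these values, at 6728, 7016, 6816 and 6322 UMIs and at 5147, 4932, 4738 and 5349 UMIs, and its part in them was not tested. In LHX6 interneurons SST was at 300, 351, 437 and 318 CPM and at 77.9, 77.2, 79.3 and 82.5 CPM in the same order.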
